A study of Mus musculus with 9 samples.

Results

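CTCF occupancy was examined around Bcl2 and Bcl2l11, a pair of genes with opposed roles in lymphocyte survival. All CTCF peaks overlapping chr1:108350000-108700000 for Bcl2 and chr2:127650000-128050000 for Bcl2l11 with its upstream flank were taken from 8 mouse peak lists (build mm9). Peaks of different libraries sharing 1 bp or more were joined into regions. The Bcl2 window of 350 kb held 15 regions and the Bcl2l11 window of 400 kb held 21, so that 36 of the 39574 regions of the whole series were members. Regions are numbered from the low to the high coordinate in each window.

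CTCF had been profiled by CUT&RUN, in which a nuclease held by an antibody cuts free the DNA around a bound protein. The DKO 72 h group was CD8+ T cells with floxed Tcf1 and Lef1 alleles deleted by hCD2-Cre (genotype Tcf1-/-Lef1-/-), cultured for 72 h with IL-7 and IL-15. The WT 72 h group carried wild-type Tcf1 and Lef1 alleles and was cultured in the same way. The DKO 0 h and WT 0 h groups were the corresponding cells without that culture. All groups, WT included, carried hCD2-Cre and the Rosa26-lsl-GFP reporter. The sorted splenocytes were GFP+, TCRbeta+, CD62Lhi, CD44lo-med and CD8+, so only cells in which Cre had acted on the reporter entered. The hCD2-Cre transgene is driven by the human CD2 promoter, and cells were sorted for GFP before the culture. Each group had 2 CTCF libraries, and 1 IgG library came from WT cells at 0 h. No source used here gives the animals' age or sex. The labels do not say whether the replicates are from different animals. P-values here therefore measure only the spread between libraries, which may be technical. CTCF peaks measure neither the Tcf1 and Lef1 deletions nor the marker genes of the sorted cells, so neither could be checked here.

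Bcl2 encodes an inhibitor of apoptosis that sits on the outer mitochondrial membrane and restrains the pore-forming proteins Bax and Bak. Bcl2l11 encodes Bim, a BH3-only protein that binds and neutralises Bcl2 and its relatives and so promotes apoptosis. IL-7 and IL-15 sustain naive and memory CD8+ T cells in part through Bcl2, and Bim is a main driver of T cell death when such signals are withdrawn. CTCF is a zinc-finger protein that halts loop extrusion by cohesin, and its sites often mark loop anchors and insulators. In the RefSeq annotation of GRCm38, Phlpp1, Kdsr and Vps4b are among the genes beside Bcl2, and Acoxl overlaps the start of Bcl2l11. An annotation of mm9 was not used here, so no region is placed in a promoter, exon or intron, and the gene names are those of the windows.

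The start regions of both genes are shown because they are the elements from which these genes are transcribed. They run from 250 bases before to 50 bases after a transcript start, in RefSeq coordinates of GRCm38.p6. Coordinates were not converted between builds, so these sequences and the mm9 peaks cannot be placed on one another. The first sequence lies on the minus strand at chr1:106714241-106714540, and the second on the plus strand at chr2:128125788-128126087. Capitals mark the letters CCCTC, a short CTCF-related word, read on either strand (GAGGG on the other strand).
Bcl2 start region: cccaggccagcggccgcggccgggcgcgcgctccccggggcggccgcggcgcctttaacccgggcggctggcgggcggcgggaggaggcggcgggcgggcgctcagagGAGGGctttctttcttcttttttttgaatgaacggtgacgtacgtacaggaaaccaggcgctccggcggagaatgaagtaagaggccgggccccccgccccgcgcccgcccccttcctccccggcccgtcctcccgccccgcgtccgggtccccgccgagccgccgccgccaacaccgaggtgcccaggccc
Bcl2l11 start region: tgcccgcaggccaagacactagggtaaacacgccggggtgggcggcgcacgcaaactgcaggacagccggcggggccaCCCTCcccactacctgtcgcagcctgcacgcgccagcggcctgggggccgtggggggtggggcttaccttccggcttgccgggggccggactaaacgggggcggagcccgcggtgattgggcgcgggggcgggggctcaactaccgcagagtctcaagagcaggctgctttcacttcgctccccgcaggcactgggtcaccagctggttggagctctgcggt
The CCCTC word stood at bases 109 to 113 of the Bcl2 sequence, on the opposite strand, and at bases 79 to 83 of the Bcl2l11 sequence. A further Bcl2l11 start region, chr2:128127325-128127624, held none. That word is common, being found in 66.0% of the 32851 start regions of this length in the RefSeq table. A longer CTCF core (CCA, any 2 bases, AG, any 2 bases, GGC, both strands) stood in 2.43% of start regions and in none of these 3. The TCF/LEF word CTTTGA, also on both strands, stood in 16% of them and in none of these 3. The CCCTC word was added after the core had found no match, and an absent word says only that these letters are not in the window read. All 3 were rich in G and C, with a GC content of 76% for Bcl2 and of 71% and 74% for Bcl2l11, against a median of 52.7% over all start regions. CpG pairs numbered 44 in the Bcl2 sequence and 27 and 38 in those of Bcl2l11, against a median of 7.

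The lists differed in length, with 10339 and 16234 peaks for DKO 72 h, 17335 and 26630 for WT 72 h, 30309 and 31394 for DKO 0 h, and 32587 and 30968 for WT 0 h. No source used here gives the read depth, and a missing peak shows only that none was listed. No CTCF list held a peak with a fold enrichment under 4, and between 5.13% and 7.38% of each list's running peak numbers were not in it. Fold enrichment is the authors' value for each peak over the background of the peak caller, and no source used here says which control set that background. It is used here to describe and rank peaks within a list, and folds set side by side across lists were not tested. The IgG list of 5 peaks had 0 in either window.

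Both windows held more CTCF regions per length than the series average, a difference that was not tested. The Bcl2 window held 4.29 regions per 100 kb and the Bcl2l11 window 5.25, against 1.54 over the whole series. In the Bcl2 window, 6 of 15 regions (40%) had a peak in all 8 libraries, 2 in 7 libraries, 3 in 2 to 6, and 4 in a single library. In the Bcl2l11 window, 3 of 21 (14.3%) had one in all 8, 3 in 7, 12 in 2 to 6, and 3 in a single library. Without replicate 1 of DKO 72 h, 6 Bcl2l11 regions had a peak in every remaining library, as did 34.9% of all regions. Over the whole series, 24.2% of regions were in all 8 and 14.7% in 1. The Bcl2 window thus had the larger share of regions found throughout, and the Bcl2l11 window the larger share found in some libraries only. Median region width was 759 bp for Bcl2 and 737 bp for Bcl2l11, against 747 bp for the series.

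**Figure D1:**
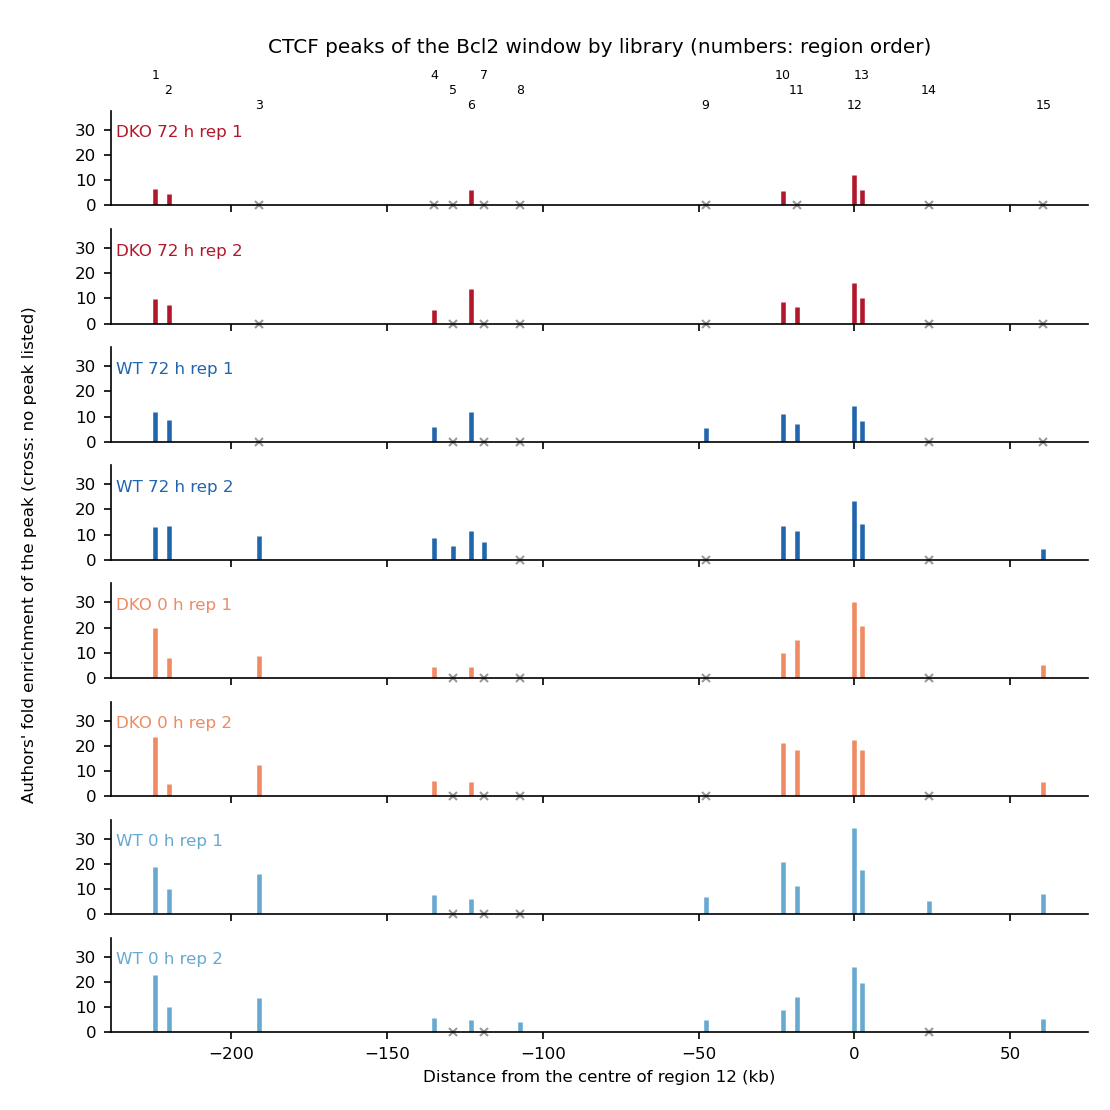
Authors' fold enrichment (vertical axis) of each CTCF peak in the Bcl2 window, by distance in kb from the centre of region 12, with 1 row per library and a grey cross where that library listed no peak. Regions 1, 2, 6, 10, 12 and 13 carry a bar in all 8 rows, and region 6 is taller in all 4 rows at 72 h than in any row at 0 h.

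Region 12 of the Bcl2 window, chr1:108632125-108633016, had the highest mean percentile of fold there over the lists. Its fold enrichment was 11.97 and 16.2 in the DKO 72 h libraries, 14.2 and 23.4 in the WT 72 h libraries, 30.1 and 22.1 in the DKO 0 h libraries, and 34.1 and 25.8 in the WT 0 h libraries. It stood between percentiles 81.2 and 94.9 of its list by fold in every library, so it was a strong peak everywhere. Region 13, chr1:108634447-108635392, began 1430 bp further on, the shortest gap in the window. Its fold enrichment was 5.98 and 10.3 in DKO 72 h, 8.05 and 14.2 in WT 72 h, 20.7 and 18.2 in DKO 0 h, and 17.7 and 19.4 in WT 0 h. Every library at 72 h was below every library at 0 h for region 13, while for region 12 the WT 72 h library of 23.4 lay above the DKO 0 h library of 22.1.

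At the low-coordinate end of the window, regions 1 and 2 formed another pair, 3397 bp apart. Region 1, chr1:108407641-108408758, had a fold enrichment of 6.43 and 9.93 in DKO 72 h, 11.7 and 13.2 in WT 72 h, 19.8 and 23.4 in DKO 0 h, and 18.6 and 22.6 in WT 0 h. Region 2, chr1:108412156-108412664, had 4.63 and 7.34 in DKO 72 h, 8.61 and 13.3 in WT 72 h, 8.03 and 4.86 in DKO 0 h, and 10.1 and 9.98 in WT 0 h. Region 1 was lower at 72 h than at 0 h in every library, and region 2 was lower in DKO than in WT at both times without overlap, but its ranges at 72 h and 0 h overlapped. By mean percentile of fold over the lists, regions 12, 1 and 13 led the Bcl2 window. In replicate 2 of DKO 0 h, region 1 at 23.4 was above region 12 at 22.1.

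Region 10, chr1:108607846-108611296, was the widest of the window at 3451 bp, and its summits were spread over 1763 bp, so that more than 1 site may be merged in it. It held 10 peaks over the 8 libraries. The highest fold per library was 5.74 and 8.55 in DKO 72 h, 10.9 and 13.5 in WT 72 h, 9.78 and 21.1 in DKO 0 h, and 20.6 and 9.05 in WT 0 h. The replicates of each 0 h group thus differed more from one another than those of either 72 h group.

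Region 6, chr1:108508800-108510525, had the opposite order of times from regions 1 and 13. Its fold enrichment was 6.29 and 13.7 in DKO 72 h and 11.98 and 11.6 in WT 72 h, against 4.50 and 5.77 in DKO 0 h and 5.96 and 4.71 in WT 0 h. Within its own list it stood at percentiles 37.1 and 86.5 in DKO 72 h and 80.3 and 64.7 in WT 72 h, against 4.41 and 18.3 in DKO 0 h and 20.3 and 7.44 in WT 0 h. These percentiles come from lists of unequal length and describe its place in each list, not a change between them. By fold, all 4 libraries at 72 h were above all 4 at 0 h, though replicate 1 of DKO 72 h, at 6.29, was close to the highest 0 h library at 5.96. Of the 9591 regions with a peak in all 8 libraries, 0.073% (7 regions) had every 72 h fold above every 0 h fold. Region 6 was the 1 such region among the 6 in the Bcl2 window, and the Bcl2l11 window had 0 among 3. The opposite order, every 72 h fold below every 0 h fold, held for 74.5% of those 9591 regions, for 2 of the 6 in the Bcl2 window (regions 1 and 13) and for all 3 in the Bcl2l11 window. Lists at 72 h also had lower median folds, 7.03 to 9.06 against 9.78 to 10.4 at 0 h, and the part of this in the members' folds was not tested.

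**Figure D2:**
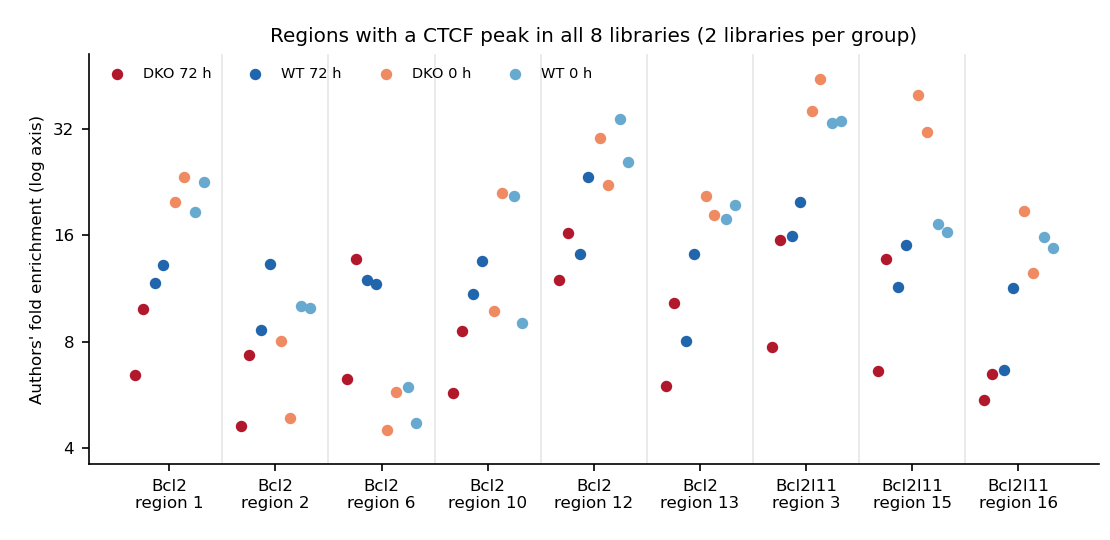
Authors' fold enrichment on a log axis for the 9 regions with a peak in all 8 libraries, with 1 point per library, coloured by group in the order DKO 72 h, WT 72 h, DKO 0 h and WT 0 h. Bcl2 region 6 is the only one of the 9 with all 4 points at 72 h above all 4 at 0 h.

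Between genotypes, the regions found throughout showed no common direction at 0 h. At 0 h, both DKO folds were above both WT folds in 33.2% of the 9591 regions, in 0 of 6 in the Bcl2 window and in 2 of 3 in the Bcl2l11 window (regions 3 and 15). Both DKO folds were below both WT folds at 0 h in 10.6%, in 1 Bcl2 region (region 2) and in 0 Bcl2l11 regions. At 72 h, both DKO folds were above both WT folds in 0.146% and in 0 members, and below them in 50.6%, in 3 Bcl2 regions (1, 2 and 10) and in 2 Bcl2l11 regions (3 and 16). The DKO 72 h lists were also shorter than the WT 72 h lists and had a median fold of 7.03 and 8.05, against 7.89 and 9.06, and the part of this was not tested.

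Of the 9 Bcl2 regions without a peak in every library, 3 were called specific to a group. The share of all regions with any such call was not computed. A region was called specific to a group when its 2 libraries both listed a peak there and the group it was set against listed none. Regions 3 and 15 were called as found at 0 h only in DKO cells. Region 3, chr1:108441235-108441992, had no peak in either DKO 72 h library, a peak in 1 WT 72 h library at 9.42, and folds of 8.73 and 12.4 in DKO 0 h and 16.1 and 13.6 in WT 0 h. Region 15, chr1:108692828-108693707, had no peak in DKO 72 h, a peak in 1 WT 72 h library at 4.20, and folds of 5.32 and 5.43 in DKO 0 h and 8.21 and 5.09 in WT 0 h. In both regions the WT 72 h peak was in the longer of the 2 lists. Calls of 0 h only in DKO covered 29.1% of all 39574 regions, more than the 2 of 15 in the Bcl2 window, and 2 of 21 were so called in the Bcl2l11 window. Without replicate 2 of DKO 72 h these counts were 4 of 15 and 7 of 21, against 43.4% of all regions under the same libraries. Without replicate 1 of DKO 0 h the Bcl2l11 count was 4 of 21, against 39.6%.

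Region 9, chr1:108584572-108585152, was called as WT only at 0 h. It had no peak in any DKO library, a fold of 5.39 in 1 WT 72 h library, and folds of 6.72 and 4.89 in WT 0 h. Replicate 1 of DKO 0 h skipped 1 peak number between the neighbouring listed peaks, so an unlisted peak could lie there. The call took in 4.88% of all regions, 1 of 15 in the Bcl2 window and 4 of 21 in the Bcl2l11 window. With peaks of −log10 q of at least 5 the Bcl2 count was 0, against 4.93% of all regions, and with absence counted only where no peak number was skipped the counts were 0 and 1. The Bcl2 count was 2 of 14 without replicate 1 of WT 0 h and 2 of 14 without replicate 2, against 7.78% and 9.2% of all regions.

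The other 6 Bcl2 regions were called by no rule. Region 4, chr1:108497323-108498081, and region 11, chr1:108613737-108614494, were missing from 1 DKO 72 h list only, with folds of 4.36 to 8.73 and of 6.51 to 18.3 where listed. Regions 5 and 7 were listed in 1 WT 72 h library and regions 8 and 14 in 1 WT 0 h library each, with folds of 4.23 to 6.91. All 4 regions of a single library therefore came from WT libraries and were weak. The share of WT libraries among the single-library regions of the whole series was not computed. Of the single-library regions in the Bcl2l11 window, region 10 came from a DKO library and regions 11 and 18 from a WT library.

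**Figure D3:**
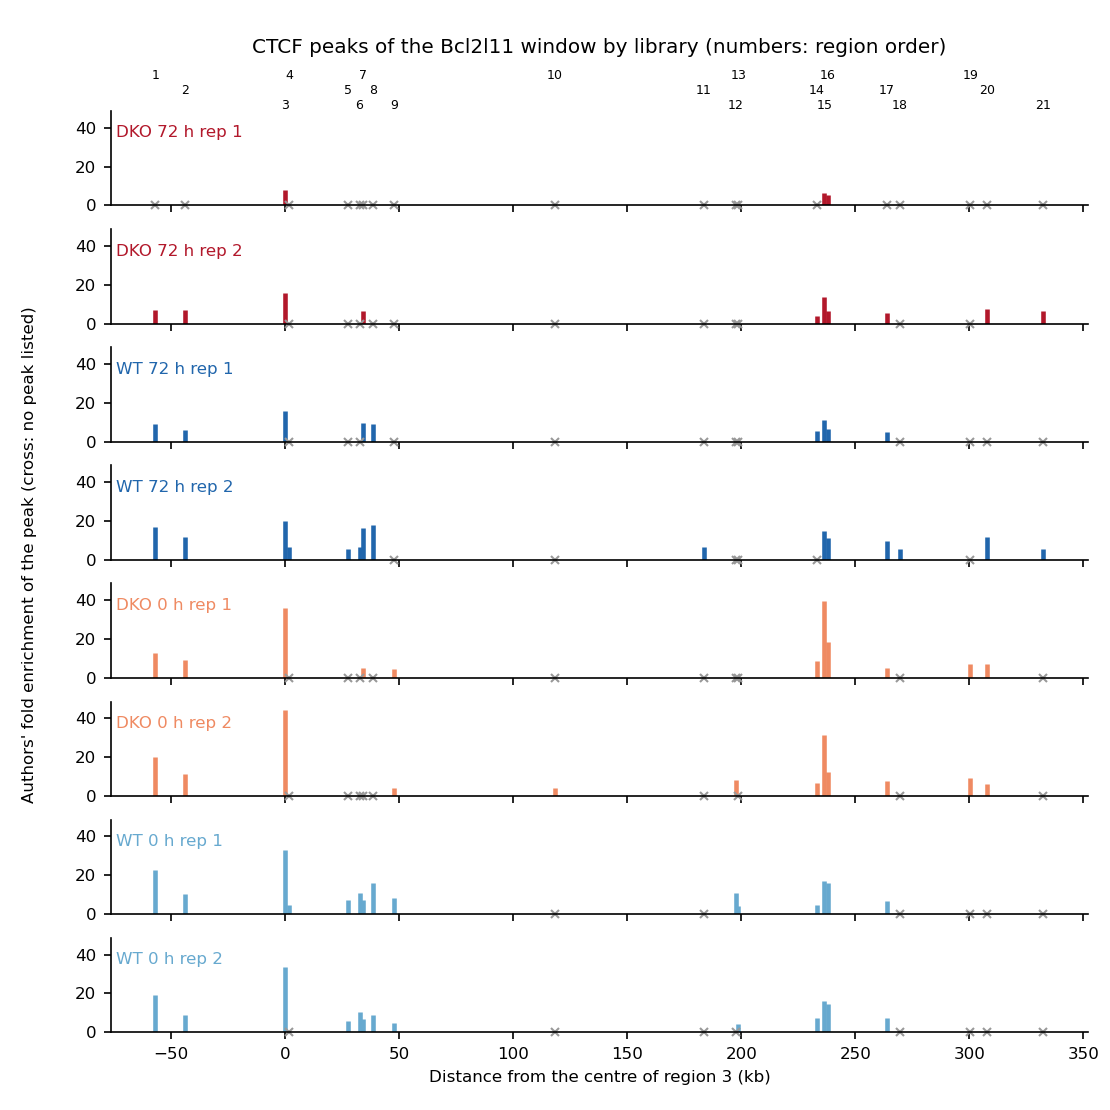
Authors' fold enrichment (vertical axis) of each CTCF peak in the Bcl2l11 window, by distance in kb from the centre of region 3, with 1 row per library and a grey cross where no peak was listed. Regions 3, 15 and 16 carry a bar in all 8 rows, and region 8 carries one in the 4 WT rows and in no DKO row.

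In the Bcl2l11 window, region 3 at chr2:127714711-127715843 had the highest mean percentile of fold over the lists. Its fold enrichment was 7.73 and 15.5 in DKO 72 h, 15.9 and 19.8 in WT 72 h, 35.9 and 44.2 in DKO 0 h, and 33.1 and 33.6 in WT 0 h. It stood between percentiles 59.6 and 97.6 of its lists, the lowest being replicate 1 of DKO 72 h. Regions 15 and 16, chr2:127951204-127952084 and chr2:127952511-127953897, lay 426 bp apart, the closest neighbours of the window. Region 15 had folds of 6.59 and 13.7 in DKO 72 h, 11.4 and 15.0 in WT 72 h, 39.8 and 31.3 in DKO 0 h, and 17.2 and 16.3 in WT 0 h. At 0 h its DKO folds were above its WT folds without overlap, and its 72 h folds were below all 0 h folds. In replicate 1 of DKO 0 h, region 15 at 39.8 was above region 3 at 35.9. Region 16 had folds of 5.46 and 6.46 in DKO 72 h, 6.64 and 11.3 in WT 72 h, 18.7 and 12.5 in DKO 0 h, and 15.9 and 14.7 in WT 0 h, where the DKO 0 h pair enclosed the WT 0 h pair.

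Region 1, chr2:127657635-127658959, came next after regions 3 and 15 by mean percentile over the lists that held it. It had no peak in replicate 1 of DKO 72 h and a fold of 7.14 in replicate 2, with 8.96 and 16.7 in WT 72 h, 12.8 and 20.1 in DKO 0 h, and 23.0 and 19.3 in WT 0 h. Both regions 2 and 17 were likewise missing from that DKO 72 h list only, which is the shortest of the 8. Their folds were 5.94 to 11.6 and 5.26 to 9.74 where listed.

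A cluster of regions between 127742195 and 127754157 of chromosome 2 was listed mostly in WT libraries. How often neighbouring regions elsewhere in the series were so listed was not computed. Region 8, chr2:127753239-127754157, had no peak in any DKO library, against folds of 9.18 and 18.2 in WT 72 h and 15.9 and 9.07 in WT 0 h. It was called WT only at 72 h, a call that took in 6.37% of all regions, 0 in the Bcl2 window and 1 in the Bcl2l11 window. Without replicate 2 of DKO 72 h these counts were 2 of 15 and 5 of 21, against 17.4% of all regions under the same libraries. Without replicate 1 of WT 72 h they were 4 of 15 and 6 of 21, against 25.8%. The region was also called WT only at both times, which held for 0.498% of all regions and again for 0 and 1. Without replicate 1 of WT 72 h the Bcl2l11 count was 3, against 1.87% of all regions. With peaks matched by summits within 100 bp, with lists of equal length, or with absence counted only where no peak number was skipped, that call was lost. In 3 of the 4 DKO lists no peak number was skipped at that place, while replicate 2 of DKO 0 h skipped 2 numbers between 127715843 and 127762723.

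At lower coordinates than region 8, regions 5 and 6 showed the same listing at 0 h. Region 5, chr2:127742195-127742965, had folds of 5.79 in 1 WT 72 h library and 7.29 and 5.86 in WT 0 h. Region 6, chr2:127747555-127748113, had 6.53 in the same WT 72 h library and 10.7 and 10.4 in WT 0 h. Neither had a peak in a DKO library, but both DKO 0 h lists skipped peak numbers there, 1 in replicate 1 and 2 in replicate 2. Region 7, chr2:127748881-127749706, lay 767 bp from region 6 and was not exclusive to WT. It had folds of 6.30 in 1 DKO 72 h library, 9.46 and 16.5 in WT 72 h, 4.94 in 1 DKO 0 h library, and 7.23 and 6.77 in WT 0 h. Region 13, chr2:127913679-127914266, was the remaining WT-only call at 0 h, with weak peaks of 4.24 and 4.41 in WT 0 h and none elsewhere, and no skipped number in the DKO 0 h lists. As it was missing at 72 h too, it was 1 of the 2 Bcl2l11 regions called 0 h only in WT, against 13% of all regions and 0 in the Bcl2 window. A peak number was skipped there in replicate 2 of WT 72 h.

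At the high-coordinate end of the window the listing was the opposite at 0 h. Region 19, chr2:128015204-128016178, had folds of 7.30 and 9.32 in DKO 0 h and no peak in any other library. Region 20, chr2:128022916-128023431, had folds of 7.52 in 1 DKO 72 h library, 12.01 in 1 WT 72 h library and 7.20 and 6.02 in DKO 0 h, with none in WT 0 h. Both were called DKO only at 0 h, which covered 2.73% of all regions, 0 of 15 in the Bcl2 window and 2 of 21 in the Bcl2l11 window. Replicate 1 of WT 0 h skipped 1 peak number between 127979775 and 128120363, so an unlisted peak could fall at one of them. The Bcl2l11 count was 0 where absence needed no skipped number and 1 of 26 with summits within 100 bp, against 2.63% of all regions. The 12.01 in a WT 72 h library shows that region 20 was not exclusive to DKO cells.

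Region 9, chr2:127762723-127763314, was the only member called 0 h only in both genotypes, a call that took in 7.51% of all regions. Its folds were 4.47 and 4.32 in DKO 0 h and 8.56 and 4.58 in WT 0 h. All but the 8.56, which stood at percentile 41.4 of its list, were near the lowest fold listed. No peak number was skipped there in any of the 4 lists at 72 h. The reverse calls found no member. DKO only at 72 h covered 0.0303% of all regions, DKO only at both times 0.0126%, 72 h only in DKO 0.116%, 72 h only in WT 0.576% and 72 h only in both genotypes 0.0783%, so that few regions anywhere were called so.

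Of the 21 Bcl2l11 regions, 14 were called by no rule, and the share of all regions called by none was not computed. Beside those described, region 14 had folds of 4.08 to 8.66 in 6 libraries, and regions 4, 12 and 21 were each listed in 2 libraries of different groups, with folds of 4.69 to 10.8. Regions 10, 11 and 18 were listed in 1 library each, with folds of 4.32 to 6.59.

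The number of peaks listed per window was the value tested. In the Bcl2 window it was 6 and 8 in DKO 72 h, 10 and 13 in WT 72 h, 10 and 10 in DKO 0 h, and 12 and 12 in WT 0 h. DKO libraries averaged 8.5 ± 1.91 peaks and WT libraries 11.75 ± 1.26 (SD, n = 4 each). The difference of -3.25 gave p = 0.0556 in an exact two-sided permutation test of genotype within time, the smallest p that its 36 assignments allow, so the test could not pass 0.05. Averages were 9.25 ± 2.99 peaks at 72 h and 11 ± 1.15 at 0 h (SD, n = 4 each), a difference of -1.75 (p = 0.167, same exact test within genotype, with the same smallest p). Without replicate 1 of WT 72 h that difference was -1. The genotype difference in the change over time was -2.5 peaks (exact p = 0.667, genotype labels permuted within time). A genotype difference shared by both times also enters that permutation, so its p cannot decide whether the change over time differed.

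In the Bcl2l11 window the number was 3 and 10 in DKO 72 h, 9 and 15 in WT 72 h, 11 and 12 in DKO 0 h, and 15 and 13 in WT 0 h. DKO libraries averaged 9 ± 4.08 peaks and WT libraries 13 ± 2.83 (SD, n = 4 each), a difference of -4 within the spread (exact two-sided permutation p = 0.167). It was -2.25 without replicate 1 of DKO 72 h and -2.5 without replicate 2 of WT 72 h. At 72 h the average was 9.25 ± 4.92 peaks, against 12.75 ± 1.71 at 0 h (SD, n = 4 each), a difference of -3.5 (exact p = 0.278). It was -1.75 without replicate 1 of DKO 72 h, -2 without replicate 1 of WT 72 h and -5.25 without replicate 2 of DKO 72 h. The genotype difference in that change was -3 peaks (exact p = 0.722, same permutation of genotype labels and same limit). That genotype difference was 0.5 without replicate 1 of DKO 72 h, 0 without replicate 2 of WT 72 h and -6.5 without replicate 2 of DKO 72 h. Per 10000 listed peaks, the difference between 72 h and 0 h turned to 1.83 in the Bcl2 window and 0.908 in the Bcl2l11 window.

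To set lists of unequal length side by side, each was also reduced to its 10339 peaks of highest −log10 p. The Bcl2 window then held 6 and 7 peaks in DKO 72 h, 7 and 7 in WT 72 h, 3 and 4 in DKO 0 h, and 3 and 3 in WT 0 h. The genotype difference was 0, and the difference between 72 h and 0 h was 3.5, with no overlap between the times (exact p = 0.0556, the smallest possible). The Bcl2l11 window held 3 and 4 peaks in DKO 72 h, 5 and 7 in WT 72 h, 3 and 3 in DKO 0 h, and 3 and 2 in WT 0 h, with a genotype difference of -1 (exact p = 0.5) and a difference between 72 h and 0 h of 2 (exact p = 0.167). With this reduction, which changes both the length of a list and the strength of the peaks kept, the time difference thus had the opposite sign in both windows, and the genotype difference was 0 in the Bcl2 window and smaller in size in the Bcl2l11 window. The part of list length in the differences was not tested.

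**Figure D4:**
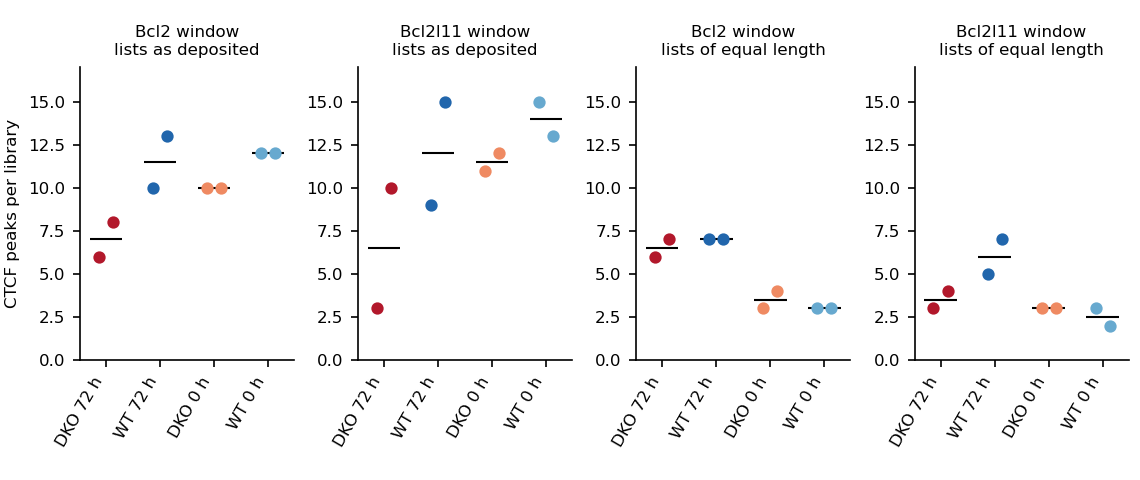
Number of CTCF peaks per library in each window, with lists as deposited (left panels) and with each list reduced to its 10339 peaks of highest −log10 p (right panels). Points are libraries and lines are means of 2; in the Bcl2 window the 72 h libraries hold 6 to 13 peaks as deposited and 6 to 7 at equal length, against 10 to 12 and 3 to 4 at 0 h.

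At equal length the series had 15226 regions, with 8 in the Bcl2 window and 9 in the Bcl2l11 window. Regions 2 and 6 of the Bcl2 window were then listed in all 4 libraries at 72 h and in none at 0 h, and 1.35% of all regions were so called, with 0 in the Bcl2l11 window. The opposite call, 0 h only in both genotypes, took in 1.79% of regions and no member. Regions 1, 7 and 8 of the Bcl2l11 window were called WT only at 72 h, a call made for 3.03% of regions and for 0 in the Bcl2 window. Region 15 of the Bcl2l11 window was called DKO only at 0 h, against 2.67% of regions. No member was called DKO only at 72 h (2.78%) or WT only at 0 h (3.03%). Bcl2 regions 1 and 12 and Bcl2l11 region 3 were the 3 members still listed in all 8 libraries.

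Presence was also tested over both times with Fisher's exact test, 4 DKO against 4 WT libraries, with Benjamini-Hochberg adjustment over 39574 regions. This called 0% of regions, and the comparison of 72 h with 0 h likewise called 0%. For an adjusted p under 0.05 most regions must reach the smallest p possible, so the design left little room for a call. The smallest p that 4 against 4 allows is 0.0286. Bcl2l11 region 8 reached that exact p unadjusted, with 0 of 4 DKO and 4 of 4 WT libraries (adjusted p = 1), and 202 regions of the series had an unadjusted p under 0.05. Bcl2l11 region 9 reached the same exact p between the times, with 0 of 4 libraries at 72 h and 4 of 4 at 0 h (adjusted p = 0.376), among 3004 regions with an unadjusted p under 0.05. In both comparisons 0 Bcl2 regions were under 0.05 unadjusted, and their smallest p was 0.143. At a single time, 2 libraries against 2 cannot give a p below 0.333, so the specific calls carry no p-value.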

How the data were processed

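The 9 CUT&RUN libraries of mouse CD8+ T cells comprised 8 for CTCF and 1 for IgG, grouped by their titles. FastQC, Bowtie2 (version 2.2.5), MACS2 (version 2.1.1) and build mm9 are named in the submitters' processing notes. No source used here gives the control or the calling thresholds. The authors deposited 1 narrowPeak list per library. Its score column, also deposited, was not used. The fold given by the authors is a ratio, each peak's enrichment over background. Values of −log10 p and −log10 q were deposited from the same peak caller, and the deposited starts, ends and summits are positions in bp.

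Peaks on chromosomes 1 to 19 and X were merged at 1 bp of overlap, and the highest fold was kept where 1 library had several peaks in a region. Percentiles are ranks of the fold within a list. Peaks per window were compared by exact permutation over libraries (36 assignments). Presence was compared by Fisher's test (exact), with p-values adjusted after Benjamini and Hochberg. Python 3.11.15, NumPy 2.4.6, pandas 2.3.3, SciPy 1.17.1 and Matplotlib 3.10.9 were used, and the region and call steps were tested on simulated data. Skipped peak numbers were counted between the listed neighbours of a region.

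Every region of both windows is accounted for. Given in full are regions with a peak in all 8 libraries, those called by any rule, and the 3 of highest mean percentile in each window. Members and lists were chosen with earlier results of these data known. Alternatives were lists of equal length, −log10 q of at least 5, summits within 100 bp, summits inside the window, overlap of 50% of the shorter peak, windows widened by 100 kb, counts per 10000 listed peaks, each library left out in turn and a block by replicate number. Counting a peak as absent only where no peak number was skipped was added after seeing the data. The planned count around other BCL2 family genes and the sequences under peaks were not analysed here, as no annotation or genome of mm9 was used.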

Additional observations from a re-analysis of the deposited data

How the results depend on the processing

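The differences in peaks per window kept their direction in 73 of their 80 alternative values (73 same, 5 reversed, 2 weaker). Counts of regions and specific regions stayed within 1.5 times in 51 and 265 values, against 5 and 55 that moved. A count of 0 in both settings was taken as the same. Values of the block by replicate number are included and could not differ by construction. Both raise the totals of unchanged values. The cause of a change was not tested, except that lists of equal length hold fewer peaks by construction. At equal length the difference between 72 h and 0 h turned to 3.5 in the Bcl2 window and 2 in the Bcl2l11 window, per 10000 listed peaks to 1.83 and 0.908, and the Bcl2 DKO minus WT difference was 0 and the Bcl2l11 one -1 at equal length. The exact p of the Bcl2 genotype difference ran between 0.0556 and 1 over the alternatives and that of the Bcl2l11 one between 0.111 and 0.5. At equal length the Bcl2 window had 8 regions, 2 of them in every library, with counts of 0 for WT only at 0 h, 2 for 72 h only in DKO, 0 for 0 h only in DKO, 3 for 72 h only in WT and 2 for 72 h only in both genotypes. At equal length the Bcl2l11 window had 9 regions, 1 of them in every library, with 3 for WT only at 72 h, 1 for DKO only at 0 h, 2 for 72 h only in WT, and 0 for WT only at 0 h, 0 h only in DKO, 0 h only in WT, WT only at both times and 0 h only in both genotypes. Of all regions at equal length, 39.6% were in every library, 4.95% were called 72 h only in DKO, 6.5% 0 h only in DKO, 4.91% 72 h only in WT, 5.15% 0 h only in WT and 0.348% WT only at both times, and 3.03%, 2.67%, 3.03%, 1.35% and 1.79% were called WT only at 72 h, DKO only at 0 h, WT only at 0 h, 72 h only in both genotypes and 0 h only in both genotypes. With −log10 q of at least 5 the Bcl2 count for WT only at 0 h was 0 of 14, against 4.93% of all regions. With windows widened by 100 kb the Bcl2 window had 21 regions. Its counts were 2 for WT only at 72 h, 2 for WT only at 0 h and 1 for WT only at both times. Shares of all regions do not change with the window, and were 6.37%, 4.88% and 0.498% for these calls. Widened likewise, the Bcl2l11 window had 25 regions. Its counts were 1 for 72 h only in DKO (0.116% of all regions), 4 for 0 h only in DKO (29.1%) and 1 for 72 h only in WT (0.576%). They were 1 for 72 h only in both genotypes (0.0783%) and 2 for 0 h only in both genotypes (7.51%). With summits within 100 bp, WT only at 72 h was 1 of 18 in the Bcl2 window, against 5% of all regions. In the Bcl2l11 window of 26 regions, DKO only at 0 h was 1 (2.63% of all regions) and 0 h only in WT was 1 (10.4%). Counts there were 0 for 0 h only in DKO (20%), WT only at both times (0.431%) and 0 h only in both genotypes (4.94%). Where a peak counted as absent only if no number was skipped, chosen after seeing the data, WT only at 0 h was 0 in the Bcl2 window and 1 in the Bcl2l11 window. In the Bcl2l11 window, 0 h only in DKO and 0 h only in WT were then 1 each, and DKO only at 0 h and WT only at both times were 0. The share of all regions under that rule was not computed, so these counts have no background.

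Leaving out each library in turn, the Bcl2l11 genotype difference in the change over time ran from -6.5 to 0.5, the 0.5 coming without DKO 72 h replicate 1, while it was 0 when WT 72 h replicate 2 was left out. The DKO minus WT difference ran from -4 to -2.5 for Bcl2 and from -5.75 to -2.25 for Bcl2l11, and the 72 h minus 0 h difference from -2.5 to -1 and from -5.25 to -1.75. Bcl2 counts ran from 0 to 4 for WT only at 72 h, 2 to 4 for 0 h only in DKO, 0 to 1 for WT only at both times, 0 to 2 for 0 h only in both genotypes and for 72 h only in WT, 1 to 2 for 0 h only in WT (0 with all libraries) and 1 to 2 for WT only at 0 h. Bcl2l11 counts ran from 3 to 6 for regions in every library, 1 to 6 for WT only at 72 h, 0 to 1 for 72 h only in DKO, 2 to 7 for 0 h only in DKO, 1 to 3 for WT only at both times, 0 to 4 for 72 h only in WT and 2 to 4 for 0 h only in WT. The share of all regions so called, with the same libraries left out, ran from 24.6% to 34.9% for regions in every library, 6.73% to 25.8% for WT only at 72 h, 29.6% to 43.4% for 0 h only in DKO, 0.5% to 1.87% for WT only at both times, 0.644% to 4.11% for 72 h only in WT, 13.4% to 30.8% for 0 h only in WT, 7.21% to 9.2% for WT only at 0 h, 0.144% to 0.417% for 72 h only in DKO and 7.52% to 18% for 0 h only in both genotypes. With a block by replicate number the differences were the same, -3.25 and -1.75 for Bcl2 and -4 and -3.5 for Bcl2l11, with exact p of 0.125, 0.25, 0.125 and 0.375, and the specific counts do not change by definition. For same-numbered libraries, the presence differences between replicates had correlations of -0.0048, 0.00942, -0.0167 and 0.0251 over regions. Presence in lists of unequal length cannot show whether same-numbered libraries shared an animal or a day, so any pairing stays unknown. Read depth is not given in the sources used here, and it limits which weak peaks a list can hold.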
